A study of Homo sapiens with 2 samples.

Results

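The genes of oxidative phosphorylation were examined in RNA-seq of Molm13 cells (MOLM-13 in the sample labels), a human acute myeloid leukemia line with a KMT2A fusion. Members were all genes of the table whose symbols follow the naming of respiratory chain subunits: NDUFA, B, C, S and V for complex I, SDHA to SDHD for complex II, UQCR for complex III, COX for complex IV, ATP5F1, ATP5M and ATP5P for complex V, and the MT- symbols of the protein-coding genes on mitochondrial DNA. This rule found 91 of 50868 genes, of which 78 lie in the nuclear genome and 13 in the mitochondrial genome. Of the 91 members, 86 had 10 or more reads when the libraries were added together and could be compared. The other 5 members were COX6A2, COX7A1 and COX8C with 0 reads in each library, COX6B2 with 1 Vector read and 2 OE-UNC5B reads, and COX7B2 with 2 Vector reads and 0 OE-UNC5B reads.

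Oxidative phosphorylation is the part of cell respiration in which electrons pass along complexes I to IV of the inner mitochondrial membrane to oxygen while protons are pumped across it, and complex V uses the returning protons to make ATP. The complexes other than complex II are built from subunits of both genomes: the mitochondrial genome gives the membrane core, and nuclear genes give the remaining subunits, which are made in the cytosol and imported. In acute myeloid leukemia this pathway is known as a main energy source of leukemic stem cells.

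The study compared 1 library of Molm13 cells given a control vector (genotype Vector, OE-Control) with 1 library of cells given UNC5B, a netrin receptor (OE-UNC5B). According to the methods, a lentivirus of the pLV3 type carried UNC5B with a FLAG tag behind a CMV promoter, together with mCherry and puromycin resistance, and infected cells were selected with puromycin. Cells of both groups grew in the same RPMI medium with serum. The time between infection and RNA extraction, and whether the cells were a pool or a clone, are not given in the sources used here. The counted reads summed to 13715566 in Vector and 15637137 in OE-UNC5B, and a floor of 3 reads corresponds to 0.219 and 0.192 CPM (counts scaled to the total of the library).

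UNC5B itself had 0 reads in each library, so the overexpression is not visible in these counts. The second library is therefore called the OE-UNC5B-labelled library, and every direction given here rests on the labels. Of 10 genes that mark Molm13 as a monocytic leukemia line, 9 had at least 10 CPM in each library. Their summed level was 4986 CPM in Vector and 2681 CPM in the OE-UNC5B-labelled library, of which LYZ gave 3836 and 1491 CPM. Without LYZ the sums were 1150 and 1191 CPM, and 6 of the 10 markers were higher and 4 lower in the OE-UNC5B-labelled library. Among them MPO had 3363 reads in Vector and 1553 in the OE-UNC5B-labelled library, while PTPRC had 1592 and 3102 reads and MEIS1 had 247 and 542, so single markers differed in both directions. Of the markers of endothelial cells 3 of 5, and of the markers of HEK-293T packaging cells or epithelium 3 of 4, had 0 reads in each library, while PECAM1 of the endothelial list, which leukocytes express as well, had 121 and 92.5 CPM.

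With 1 library per group there is no replicate, and no test of the conditions could be made. Each gene is described by its level in each library, in CPM scaled with the TMM method, and by the log2 ratio of the OE-UNC5B-labelled library over Vector, with 0.5 reads added to each count. A 95% interval was computed from the reads (Clopper-Pearson). It covers counting error only and not the variation between cultures. A gene counted as lower or higher when it was past 1.5-fold, which is 0.58 on the log2 scale. In bulk RNA, fewer cells with a transcript and less of that transcript per cell cannot be told apart.

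The promoters of 3 nuclear members are shown because they carry, in different combinations, the short motifs of the factors best known for driving nuclear respiratory genes. COX5B encodes a subunit of cytochrome c oxidase, COX8A was the nuclear member with the highest level per length, and SDHB encodes the iron-sulfur subunit of complex II, the complex whose median log2 ratio was nearest 0. The lines of COX5B and COX8A hold the 250 bases before a RefSeq transcription start on GRCh38.p14, 5′ to 3′ on the strand of the gene. In the deposited table these genes start earlier, so that the last 22 and 13 bases of the lines lie within the gene. For SDHB the last 138 bases would, and its line leaves them out and holds the 112 bases before them. Capitals mark the NRF1 core GCATGCGC, the ETS core CCGGAAGT (the motif of GABPA) and the GC box GGGGCGGG (bound by SP1). The YY1 core AAGATGGC was searched as well, but no printed line holds it. Each motif was searched on both strands.
COX5B, chr2:97645812-97646061, plus strand: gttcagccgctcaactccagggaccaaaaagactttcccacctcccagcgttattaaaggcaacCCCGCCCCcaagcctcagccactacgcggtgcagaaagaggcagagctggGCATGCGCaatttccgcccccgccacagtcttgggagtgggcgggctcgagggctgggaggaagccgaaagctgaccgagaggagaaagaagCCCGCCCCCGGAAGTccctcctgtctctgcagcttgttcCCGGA
COX8A, chr11:63974370-63974619, plus strand: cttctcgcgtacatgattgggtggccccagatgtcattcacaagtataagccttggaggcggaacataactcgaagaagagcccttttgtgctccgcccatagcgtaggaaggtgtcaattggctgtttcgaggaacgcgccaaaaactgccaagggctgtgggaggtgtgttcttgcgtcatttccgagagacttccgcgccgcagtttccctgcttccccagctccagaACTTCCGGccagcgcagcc
SDHB, chr1:17054171-17054282, minus strand: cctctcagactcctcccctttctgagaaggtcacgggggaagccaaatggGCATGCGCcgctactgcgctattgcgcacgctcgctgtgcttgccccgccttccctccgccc

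In COX5B the NRF1 core began 136 bases before the start, a GC box began 186 bases before it, and a further GC box at 44 bases overlapped the ETS core at 37 bases. A second ETS core of COX5B began 5 bases before the start and ran past the printed window. COX8A held an ETS core 19 bases before the start, and SDHB an NRF1 core 200 bases before it. A RefSeq start was listed for 64 of the 78 nuclear members, with 76 starts in all. In windows from 250 bases before to 50 bases after the start, the NRF1 core occurred in 19.7% of the windows of members, against 3.05% of all 35116 windows and 4.89% of the 14470 windows of genes compared here. The ETS core occurred in 14.5% of the windows of members, against 4.14% and 7.63%, and the YY1 core in 17.1%, against 2.89% and 4.89%. The GC box occurred in 18.4% of the windows of members, below its share of 22.6% in all windows and 35.0% in those of the genes compared. The median log2 ratio was -0.48 for the 14 members with an NRF1 core and -0.46 for the 46 without one. For the ETS core it was -0.55 with the motif (11 members) and -0.45 without it, for the YY1 core -0.34 (12 members) and -0.50, and for the GC box -0.44 (12 members) and -0.47. The medians with and without each of these letters were thus on the same side of 0.

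Most members were lower in the OE-UNC5B-labelled library. The log2 ratio was below 0 for 79 of the 86 members compared and above 0 for 7, where 50.6% of all tested genes lay below 0. The median log2 ratio of the members was -0.48, beside a median of -0.01 over the 15384 tested genes. Of the 86 members, 29 were lower by at least 1.5-fold (33.7%) and 0 were higher by that fold, where 12.5% of all tested genes were lower and 12.9% were higher. At 2-fold, 3 members were lower (MT-ND6, ATP5MC1 and NDUFB6) and 0 were higher, where 4.79% and 5.15% of tested genes were past this fold. The interval from the reads lay below 0 for 74 members and above 0 for 2, against 26.3% and 25.1% of all tested genes.

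Members are well expressed and short, and their values are also set against genes with these properties. Among protein-coding genes with 500 reads or more in total, 6.93% were lower by at least 1.5-fold, and among those of them, other than members, whose canonical transcript is at most 750 nt long, 25.3% were. Transcript length moved with the log2 ratio among these protein-coding genes. Those other than members had a median log2 ratio of -0.44 at up to 500 nt (30 genes), -0.38 at 500 to 750 nt (144 genes), -0.30 at 750 to 1000 nt (215 genes), -0.17 at 1000 to 2000 nt (1296 genes) and 0.06 above 2000 nt (5995 genes). Nuclear members in the same classes had medians of -0.59 (10 members), -0.52 (24), -0.32 (8), -0.21 (15) and -0.38 (16). The median of the members was thus the lower one in each class, by little between 750 and 2000 nt and by the most above 2000 nt. Between 750 and 1000 nt the share lower by at least 1.5-fold went the other way, 12.5% of members (1 of 8) and 20.0% of other genes. Of the 34 nuclear members of at most 750 nt, 47.1% were lower by at least 1.5-fold, with a median of -0.56, and the 127 other genes of that length that do not encode ribosomal proteins had 30.7% and a median of -0.46. Across genes, which are not independent replicates, the log2 ratio and log2 transcript length had a Pearson's r of 0.33 and a Spearman's rho of 0.38 over 73 nuclear members, and 0.35 and 0.40 over 7680 other protein-coding genes. When the trend with transcript length over protein-coding genes was subtracted, the median of the nuclear members was -0.13, with 49 of 73 below 0 (67.1%) and 7 lower by at least 1.5-fold (9.59%), where 48.6% and 5.18% of the protein-coding genes with 500 reads or more were. The mitochondrial median became -0.13 as well, with 9 of 13 below 0. The part of transcript length in the differences given below was not tested beyond these values, and the subtraction was added after the values were seen. It uses the annotated canonical transcript, which for mitochondrial members is the gene itself, and the length of the expressed transcripts was not measured.

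**Figure D1:**
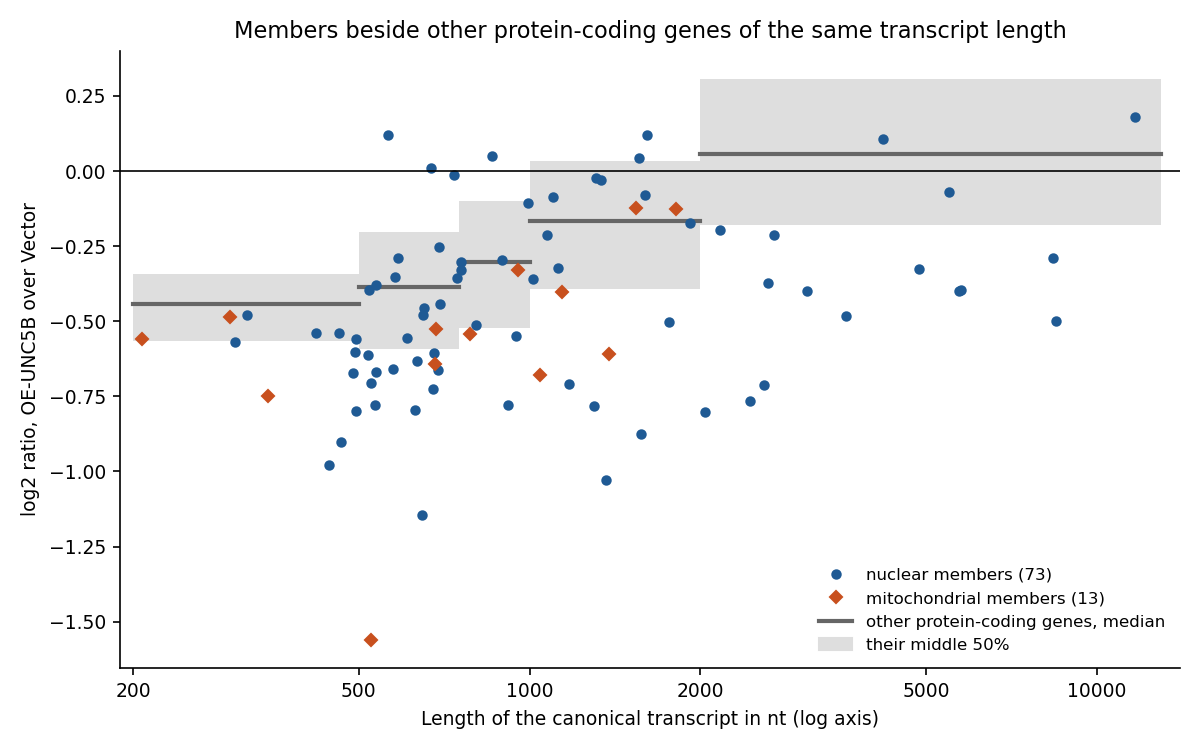
The log2 ratio of the OE-UNC5B-labelled library over Vector is plotted against the length of the canonical transcript in nt (log axis) for 73 nuclear members (circles) and 13 mitochondrial members (diamonds). Grey lines and bands are the median and the middle 50% of other protein-coding genes with at least 500 reads in each length class, from -0.44 at up to 500 nt to 0.06 above 2000 nt, and most members lie at or below the line of their class.

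By genome of origin, the median log2 ratio was -0.45 for the 73 nuclear members compared and -0.54 for the 13 mitochondrial members, a difference of 0.09 between the medians that was nearly 0 or turned sign with length trends subtracted. Of the nuclear members, 24 were lower by at least 1.5-fold (32.9%), 66 were below 0 and 7 above 0. Of the mitochondrial members, 5 were lower by at least 1.5-fold (38.5%) and all 13 were below 0. By that fold 12.5% of all tested genes and 25.3% of other short protein-coding genes were lower. With the transcript length trend subtracted, 7 nuclear members and 1 mitochondrial member were lower by that fold. Both genomes thus showed members on the lower side, with a wider spread among the nuclear members, apart from MT-ND6. In whole-library terms, the 13 mitochondrial members took 6.05% of all counted reads in Vector (95% Wilson interval 6.04 to 6.06) and 4.82% in the OE-UNC5B-labelled library (4.81 to 4.83). The nuclear members took 1.04% and 0.804%. The mitochondrial ribosomal RNAs, which are transcribed from the same genome, took 0.732% and 0.843%, a higher share in the OE-UNC5B-labelled library. MT-RNR1 had a log2 ratio of -0.20 and MT-RNR2 of 0.20.

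**Figure D2:**
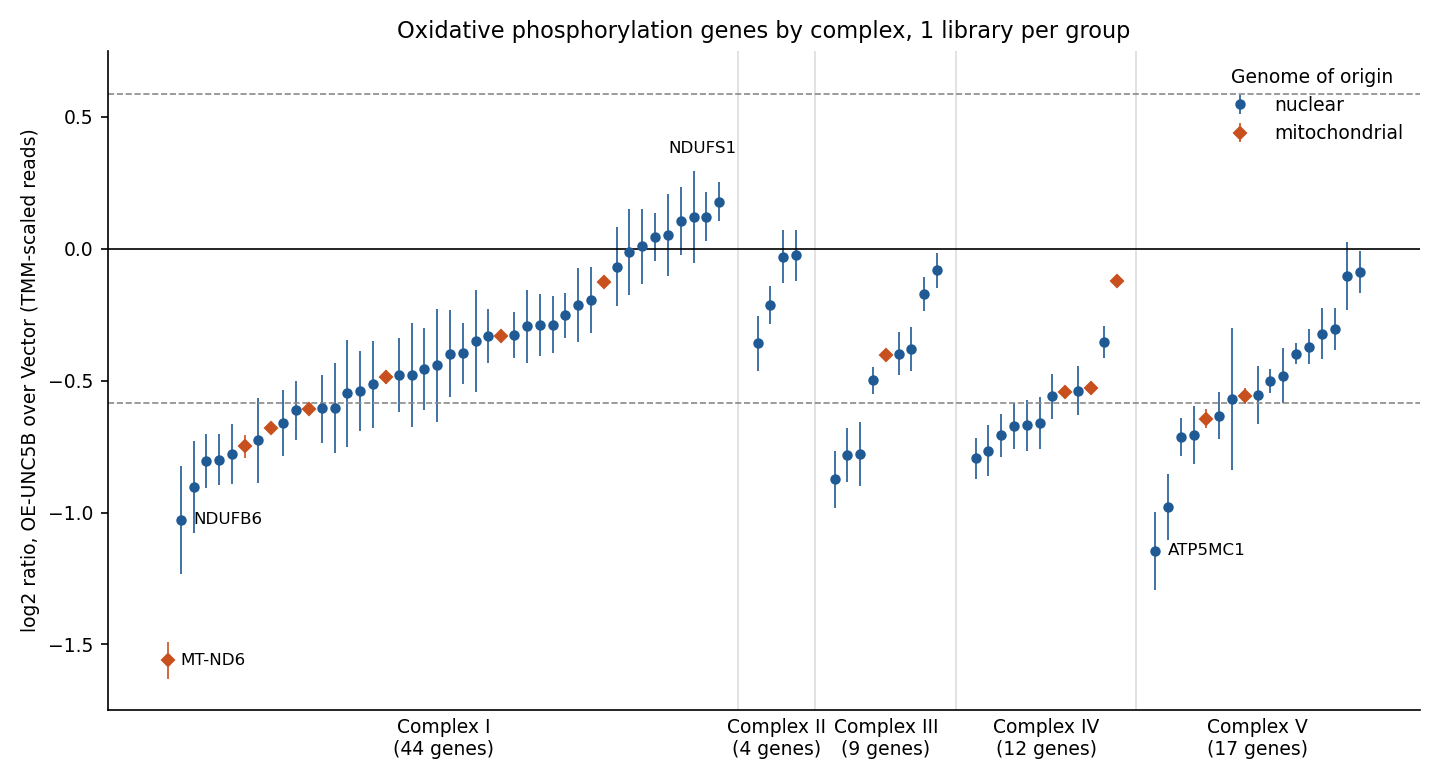
Log2 ratios of the OE-UNC5B-labelled library over Vector are shown for the 86 members compared, ordered within each complex, with circles for nuclear and diamonds for mitochondrial genes. Bars are 95% intervals from the reads and cover counting error only, dashed lines mark 1.5-fold, and 79 of 86 members lie below 0, with MT-ND6, ATP5MC1 and NDUFB6 lowest.

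The mitochondrial members were described first, since each of them was lower. They encode the membrane core of complex I (MT-ND1 to MT-ND6 and MT-ND4L), cytochrome b of complex III (MT-CYB), the catalytic core of complex IV (MT-CO1 to MT-CO3) and the a and A6L subunits of complex V (MT-ATP6 and MT-ATP8). The genes on the heavy strand are transcribed together and cut apart at transfer RNAs, while MT-ND6 is read from the light strand. The median log2 ratio was -0.61 for the 7 complex I genes, -0.40 for MT-CYB, -0.53 for the 3 complex IV genes and -0.60 for the 2 complex V genes.

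MT-ND6, at 14149 to 14673 of the mitochondrial genome on the minus strand, had 5528 reads (410 CPM) in Vector and 2209 reads (139 CPM) in the OE-UNC5B-labelled library. Its log2 ratio of -1.56 (interval -1.63 to -1.49), or 2.95-fold lower, was the lowest of all members. The next lowest mitochondrial gene, MT-ND3, had 795 and 473 CPM, a log2 ratio of -0.75. MT-ND6 thus stood apart from the 12 genes of the other strand, whose log2 ratios ran from -0.75 to -0.12 with a median of -0.53. With the transcript length trend subtracted, the log2 ratio of MT-ND6 was -1.10. MT-ND6 was then the only mitochondrial member past 1.5-fold, and MT-ATP8, MT-ND4L, MT-CO1 and MT-ND5 were above 0. The lengths subtracted for are those of the annotated genes, also where genes share 1 transcript. Whether counting used strand is not given in the sources used here, so reads of MT-ND6 and of the opposite strand cannot be told apart. The libraries were made after mRNA separation, and whether MT-ND6 was captured alike in both was not tested.

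Among the other complex I genes, MT-ND2 had 3790 CPM in Vector and 2367 CPM in the OE-UNC5B-labelled library, a log2 ratio of -0.68. MT-ND4 had 8248 and 5413 CPM, a log2 ratio of -0.61, and MT-ND4L, whose end overlaps the start of MT-ND4 by 7 nt, had 1938 and 1383 CPM, a log2 ratio of -0.49. MT-ND1 had 4072 and 3241 CPM, a log2 ratio of -0.33. MT-ND5, the longest of the 13 at 1812 nt, had 2549 and 2335 CPM, a log2 ratio of -0.13. Of these genes MT-ND2, MT-ND3, MT-ND4 and MT-ND6 were past 1.5-fold, MT-ND4 no longer with library totals or DESeq2 size factors, and the interval of MT-ND5 ran from -0.15 to -0.11, the closest to 0 among them.

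MT-CO1, the subunit that holds the oxygen-binding site of cytochrome c oxidase, was the most abundant member. It had 19619 CPM in Vector and 18002 CPM in the OE-UNC5B-labelled library, a log2 ratio of -0.12. MT-CO2 had 5308 and 3685 CPM, a log2 ratio of -0.53, and MT-CO3 had 8537 and 5861 CPM, a log2 ratio of -0.54. The 3 subunits of this catalytic core therefore did not keep the same proportion, and MT-CO1 took 31.9% of the reads of the 13 genes in Vector and 38.0% in the OE-UNC5B-labelled library. MT-CYB had 3694 and 2796 CPM, a log2 ratio of -0.40.

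MT-ATP8 and MT-ATP6 lie on 1 transcript and share 46 nt, chrM:8527-8572, which are 22.2% of MT-ATP8. The stretch is printed because reads within it belong to both genes. Capitals mark the start codon of MT-ATP6 and the stop codon of MT-ATP8.
MT-ATP8 and MT-ATP6 overlap, plus strand: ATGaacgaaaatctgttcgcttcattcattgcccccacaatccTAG
MT-ATP8 had 1497 CPM in Vector and 1016 CPM in the OE-UNC5B-labelled library, a log2 ratio of -0.56. MT-ATP6 had 1054 and 675 CPM, a log2 ratio of -0.64, and was past 1.5-fold. After subtraction of the length trend, MT-ATP8 was at 0.13 and MT-ATP6 at -0.25. The lengths used for it were those of the annotated genes, 207 and 681 nt, although both lie on 1 transcript. The difference in sign thus comes from the subtraction, and without it both were below 0. How the counting treated the shared bases is not given in the sources used here.

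Copies of mitochondrial genes in the nuclear genome can take their reads. MTATP6P1 is identical to MT-ATP6 at 98.5% of 681 nt and MTND2P28 to MT-ND2 at 98.4% of 1042 nt. MTATP6P1 had 10205 reads in Vector and 7595 in the OE-UNC5B-labelled library, a log2 ratio of -0.66, and held 41.8% and 41.5% of the reads of the pair. MTND2P28 had 6533 and 4720 reads, a log2 ratio of -0.71. Of the 369 pseudogenes named after these genes, 12 had 10 or more reads in total. Of the 12, 3 were lower by at least 1.5-fold, beside 12.5% of all tested genes. They were MTATP6P1, MTND2P28 and MTND6P4, which had 13 and 8 reads and an interval of -2.41 to 0.44 that spans 0. MTATP6P1 and MTND2P28 had a log2 ratio near that of their gene, and the summed reads gave -0.65 for MT-ATP6 and -0.68 for MT-ND2. The levels of MT-ATP6 and MT-ND2 are uncertain for this reason.

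**Figure D3:**
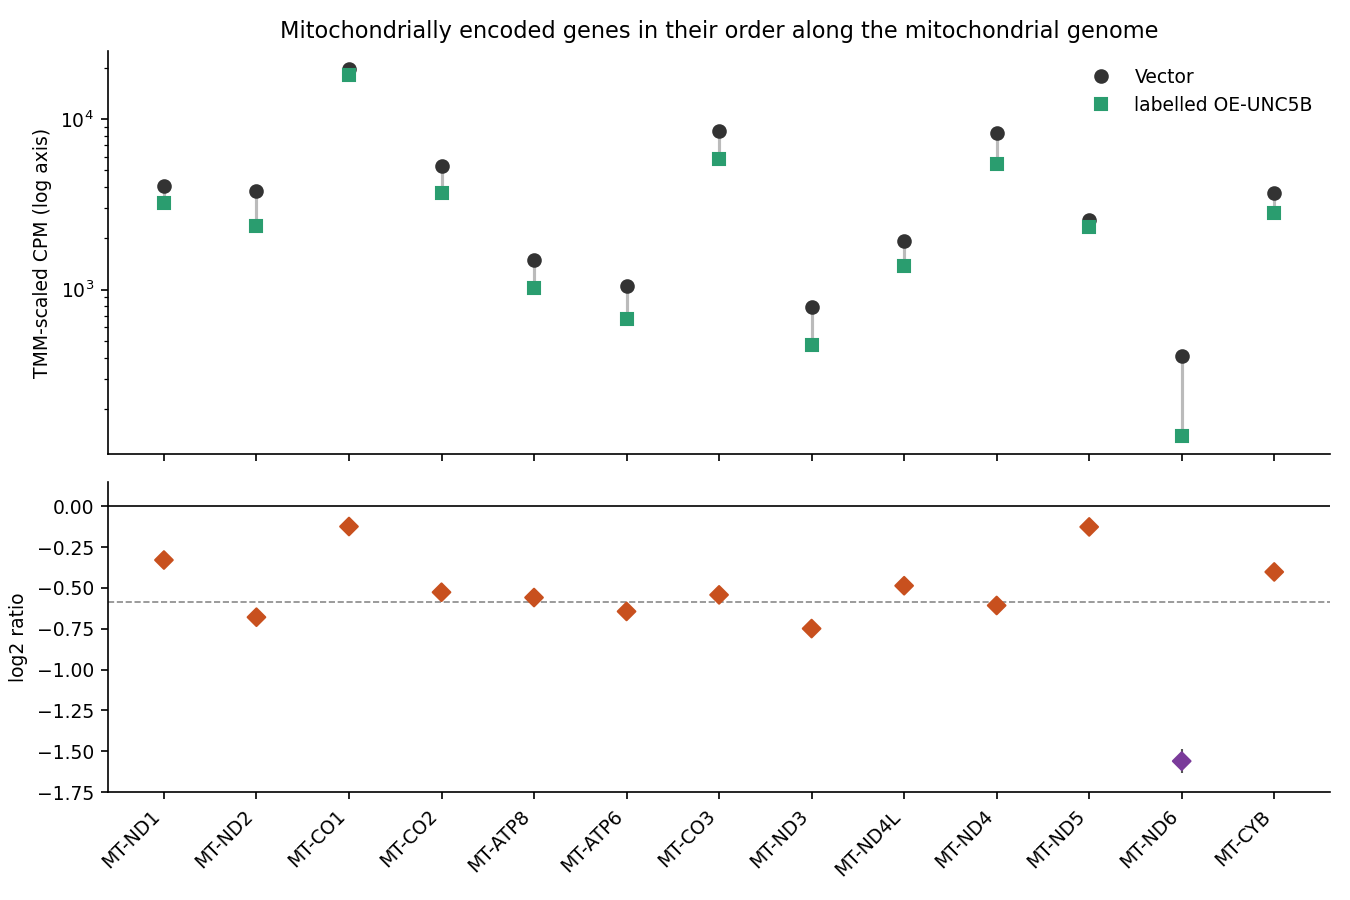
The upper panel gives the TMM-scaled CPM (log axis) of the 13 mitochondrial members in Vector (circles) and in the OE-UNC5B-labelled library (squares), in their order along the genome. The lower panel gives their log2 ratios with 95% intervals from the reads, most of them smaller than the symbols, and a dashed line at 1.5-fold. MT-ND6 lies lowest at -1.56, and MT-CO1 and MT-ND5 lie closest to 0.

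Complex I passes electrons from NADH to ubiquinone. Of its 37 nuclear members, 10 were lower by at least 1.5-fold (27.0%), 30 were below 0 and 7 above 0, with a median log2 ratio of -0.40, or -0.069 with the length trend subtracted. The share of 27.0% is near the 25.3% of other short protein-coding genes, and with the trend subtracted 2 of the 37 were lower by that fold and 22 were below 0. With TMM scaling each member above 0 belonged to complex I, among them NDUFS1, NDUFV1, NDUFS4, NDUFA12 and NDUFB5. In FPKM, SDHC (6.54 and 6.65) and SDHD (19.1 and 19.3) were higher in the OE-UNC5B-labelled library too. With the length trend subtracted other complexes had members above 0 as well, such as SDHC (0.21), UQCRC1 (0.11), COX6C (0.02) and ATP5F1C (0.19).

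The nuclear members of complex I split by role. Its catalytic core, the subunits that bind NADH and carry electrons over iron-sulfur clusters, is encoded by 7 nuclear genes, among them NDUFS1, NDUFS7 and NDUFV1. These genes had a median log2 ratio of 0.04, and none was past 1.5-fold in either direction. NDUFS1, the largest subunit, had 192 CPM in Vector and 217 CPM in the OE-UNC5B-labelled library, a log2 ratio of 0.18 (interval 0.10 to 0.25) and the highest of all members. Its transcript is long, and with the length trend subtracted it was at -0.11, on the lower side. NDUFV1, which binds NADH, had 131 and 135 CPM, a log2 ratio of 0.04. At the low end of the core, NDUFS7 had 118 and 94.1 CPM, a log2 ratio of -0.33. The 30 accessory subunits had a median of -0.47, and 27 of them were below 0. The summed level of the core genes was 720 CPM in Vector and 725 CPM in the OE-UNC5B-labelled library, while that of the accessory genes was 2262 and 1660 CPM. The core genes have longer transcripts (median 894 nt) than the accessory genes (median 672 nt). With the length trend subtracted, the medians were 0.24 for the core and -0.14 for the accessory genes. The core was separated from the accessory genes after the values were seen, so this is a description only.

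The 10 lower complex I genes include 6 of the 11 genes of the NDUFB series, which encode accessory subunits of the membrane arm. By that fold 12.5% of all tested genes and 25.3% of other short protein-coding genes were lower. The series was picked out after the values were seen. After subtraction of the length trend NDUFB6 was at -0.80, and the other 5 were between -0.41 and -0.13, within 1.5-fold. Of the rest of the series, NDUFB1, NDUFB5, NDUFB9 and NDUFB11 were then above 0 and NDUFB4 was below 0. NDUFB6, on chromosome 9, had 545 reads (40.4 CPM) in Vector and 315 reads (19.8 CPM) in the OE-UNC5B-labelled library, a log2 ratio of -1.03 (interval -1.23 to -0.83). NDUFB2 had 52.3 and 28.0 CPM, a log2 ratio of -0.90, NDUFB7 had 114 and 66.7 CPM, a log2 ratio of -0.78, and NDUFB10 had 55.7 and 33.7 CPM, a log2 ratio of -0.73. NDUFB8 and NDUFB3 followed with log2 ratios of -0.61 and -0.60, and were not past 1.5-fold with library totals. NDUFA11, a membrane arm subunit as well, had 90.8 and 57.5 CPM, a log2 ratio of -0.66. Further accessory subunits outside the NDUFB series were lower too. NDUFS5, the nuclear complex I gene with the highest level per length (248 and 147 FPKM), had a log2 ratio of -0.80, and NDUFS6, a zinc-binding subunit, had 112 and 73.5 CPM, a log2 ratio of -0.61. NDUFA4, named with complex I but now assigned to complex IV, had 142 and 81.4 CPM, a log2 ratio of -0.80.

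Not every accessory gene was on the lower side. NDUFA12 had 36.1 CPM in Vector and 39.2 CPM in the OE-UNC5B-labelled library, a log2 ratio of 0.12 whose interval ran from -0.05 to 0.29. NDUFB5 had 65.0 and 69.9 CPM, a log2 ratio of 0.11 (interval -0.02 to 0.23), and NDUFS4 had 55.7 and 56.1 CPM, a log2 ratio of 0.01 (interval -0.13 to 0.15). For these 3 genes a difference was not detectable at this depth.

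Complex II, succinate dehydrogenase, links the citric acid cycle to the respiratory chain and is the only complex encoded by the nuclear genome alone. None of its 4 members was past 1.5-fold, and the median log2 ratio was -0.12. SDHA, the flavin-bearing subunit, had 240 CPM in Vector and 207 CPM in the OE-UNC5B-labelled library, a log2 ratio of -0.21. SDHB, the iron-sulfur subunit whose promoter is printed above, had 117 and 91.5 CPM, a log2 ratio of -0.36, and the highest level per length of the 4 (34.6 and 27.9 FPKM). SDHC and SDHD anchor the enzyme in the membrane. SDHC had 120 and 118 CPM, a log2 ratio of -0.02 (interval -0.12 to 0.07), and SDHD had 113 and 110 CPM, a log2 ratio of -0.03 (interval -0.13 to 0.07). The intervals of SDHA and SDHB lay below 0, and a difference in the anchors was not detectable at this depth. With the length trend subtracted, the direction turned to a median of 0.073, with SDHA at -0.15 and SDHB at -0.058.

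Complex III passes electrons from ubiquinol to cytochrome c. Each of its 8 nuclear members was below 0, with a median log2 ratio of -0.45, and 3 were lower by at least 1.5-fold (37.5%). By that fold 12.5% of all tested genes were lower, and 25.3% of other protein-coding genes of at most 750 nt. The 8 members have a median transcript of 1584 nt, and 10.8% of other protein-coding genes of 1000 to 2000 nt were lower. Without the length trend, 6 of the 8 were below 0 and 2 were lower by that fold. The 3 lower genes encode small subunits without a redox centre. UQCRQ had 129 CPM in Vector and 70.2 CPM in the OE-UNC5B-labelled library, a log2 ratio of -0.87, UQCR11 had 146 and 85.1 CPM, a log2 ratio of -0.78, and UQCR10 had 101 and 58.8 CPM, a log2 ratio of -0.78. UQCRB and UQCRH, also small subunits, had log2 ratios of -0.50 and -0.38, and UQCRH had the highest level per length of its nuclear members (84.9 and 67.5 FPKM). The large core proteins UQCRC1 and UQCRC2 were closest to 0. UQCRC1 had 260 and 245 CPM, a log2 ratio of -0.08, UQCRC2 had 281 and 250 CPM, a log2 ratio of -0.17, and UQCRFS1, the Rieske iron-sulfur protein, had 195 and 148 CPM, a log2 ratio of -0.40, slightly below that of the small subunit UQCRH. The median was -0.78 for the 5 small subunits and -0.17 for these 3 genes, and with the length trend subtracted it was -0.54 and -0.03. On that scale UQCRB, with an annotated transcript of 8459 nt, moved from -0.50 to -0.71. UQCRFS1 was at -0.37 and UQCRH at 0.076 on it, against the order of the medians. This division too was made after the values were seen.

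Complex IV, cytochrome c oxidase, had the lowest median of the nuclear complexes, -0.67 over 9 members compared. All 9 were below 0 beyond their intervals and 6 were lower by at least 1.5-fold (66.7%), where 25.3% of other short protein-coding genes were. These members also have the shortest median transcript of the nuclear complexes, 629 nt. With the length trend subtracted, 8 of the 9 were below 0 and 1 was lower by at least 1.5-fold. Complex IV was then no longer lowest, with medians of -0.21 for complex IV, -0.25 for complex V and -0.41 for complex III. That order rests on the annotated lengths, which reach 8459 nt for UQCRB of complex III. COX7C had 236 CPM in Vector and 136 CPM in the OE-UNC5B-labelled library, a log2 ratio of -0.80, and COX7B had 157 and 92.2 CPM, a log2 ratio of -0.76. COX5A and COX5B, which sit on the matrix side, had log2 ratios of -0.71 and -0.66, with 216 and 132 CPM for COX5A and 151 and 95.3 CPM for COX5B. COX6B1 on the outer face had 185 and 116 CPM and COX6A1 had 149 and 93.5 CPM, both at a log2 ratio of -0.67. COX8A had the highest level per length of all nuclear members, 366 FPKM in Vector and 257 FPKM in the OE-UNC5B-labelled library, a log2 ratio of -0.56. COX6C was the least different, with 342 and 268 CPM, a log2 ratio of -0.35. The 9 genes thus lay close together, over a range of 0.44.

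Several complex IV subunits exist as pairs of a widely expressed form and a tissue form. COX6A1 was present and its muscle form COX6A2 had 0 reads, COX7A2 was present (155 and 107 CPM, a log2 ratio of -0.54) and its muscle form COX7A1 had 0 reads, and COX8A was present while COX8C had 0 reads. COX6B2, known from testis, had 1 read in Vector and 2 reads in the OE-UNC5B-labelled library, beside 2501 and 1851 reads of COX6B1. The tissue forms were under the floor of 3 reads in each library, so no exchange between the forms could be seen at this depth.

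Complex V, the ATP synthase, had a median log2 ratio of -0.50 over 15 nuclear members. All 15 were below 0 and 5 were lower by at least 1.5-fold (33.3%). By that fold 12.5% of all tested genes were lower, and 25.3% of other protein-coding genes of at most 750 nt. The 15 members have a median transcript of 995 nt, and 20.0% of other protein-coding genes of 750 to 1000 nt were lower. Without the length trend, 11 of the 15 were below 0 and 2 were lower by that fold. Of the 5 lower genes, 3 encode the c subunit, which forms the rotor ring in the membrane. ATP5MC1, ATP5MC2 and ATP5MC3 give the same mature c protein after import. ATP5MC1, on chromosome 17, had 1090 reads (80.8 CPM) in Vector and 581 reads (36.5 CPM) in the OE-UNC5B-labelled library, a log2 ratio of -1.14 (interval -1.29 to -0.998) and the lowest of all nuclear members. ATP5MC3, the most abundant of the 3, had 281 and 172 CPM, a log2 ratio of -0.71, and ATP5MC2 had 175 and 113 CPM, a log2 ratio of -0.63. Together the c subunit genes had 538 CPM in Vector and 321 CPM in the OE-UNC5B-labelled library. After subtraction of the length trend, the log2 ratio was -0.73 for ATP5MC1, -0.64 for ATP5MC3 and -0.22 for ATP5MC2.

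Outside the rotor ring, ATP5MF, the f subunit, had 103 CPM in Vector and 52.3 CPM in the OE-UNC5B-labelled library, a log2 ratio of -0.98. ATP5PF, coupling factor 6 of the outer stalk, had 118 and 72.1 CPM, a log2 ratio of -0.71. The 5 subunits of the catalytic F1 head had a median of -0.40. ATP5F1B, the catalytic beta subunit, had the highest level per length of the nuclear members of the complex (115 and 83.9 FPKM) and a log2 ratio of -0.50. ATP5F1A had 857 and 650 CPM, a log2 ratio of -0.40, and the most reads of any nuclear member. ATP5F1C, the central shaft, had 179 and 169 CPM, a log2 ratio of -0.09. The members of the outer stalk had a median of -0.46 and the e, f and g subunits a median of -0.57. With the length trend subtracted the order turned, to -0.33 for the F1 head, -0.19 for the outer stalk and -0.046 for the e, f and g subunits. Levels per length in the deposited FPKM depend on the gene length used there, which sums all annotated exons.

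**Figure D4:**
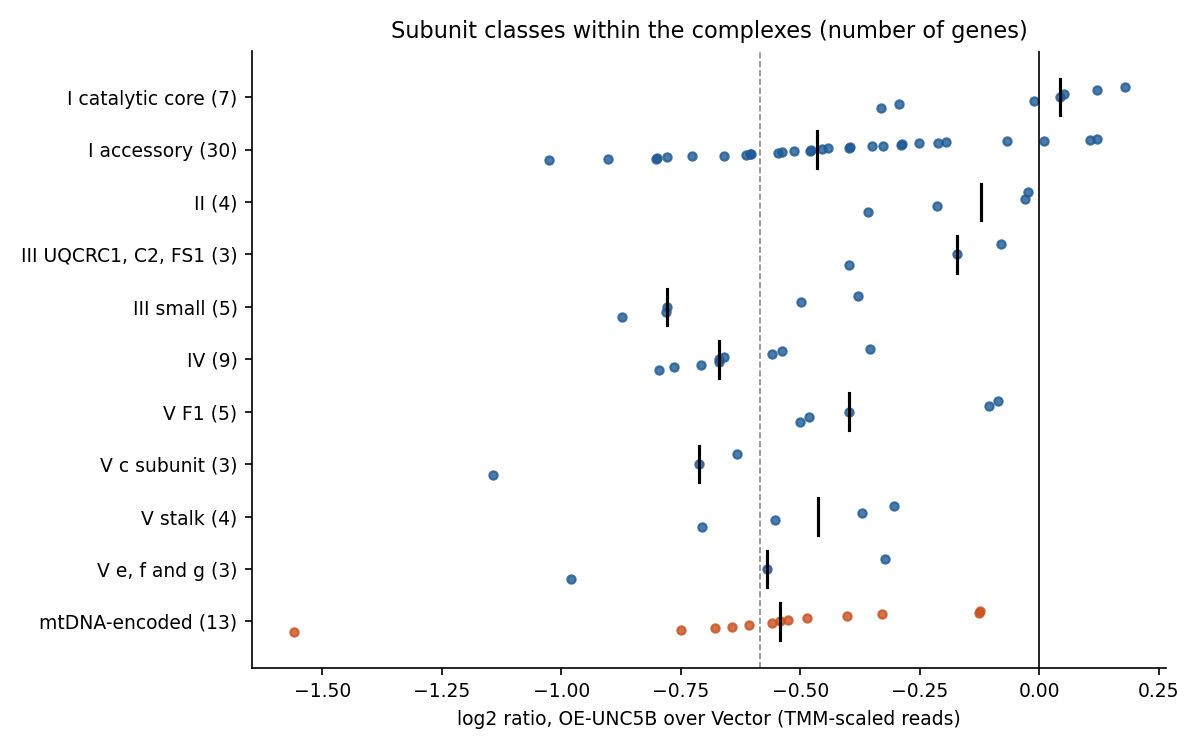
Each point is the log2 ratio of 1 member, by subunit class within the complexes, with the number of genes in brackets, a black bar at the median and a dashed line at 1.5-fold. The complex I core has its median at 0.04 and the accessory subunits at -0.47, the complex III small subunits at -0.78 and the larger subunits at -0.17, and all 9 complex IV points lie between -0.80 and -0.35.

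Some members share exons with other genes. Their reads are uncertain because neither the use of strand nor the treatment of bases shared on 1 strand is given. In GENCODE 44, 17 nuclear members overlap a gene that had at least 10% of their reads, 8 of them on the same strand. ATP5PF shares 34.4% of its exon bases with GABPA on the opposite strand, and GABPA had 671 reads in Vector and 956 in the OE-UNC5B-labelled library, a log2 ratio of 0.27. NDUFC2 overlaps the readthrough gene NDUFC2-KCTD14, which had 169 and 44 reads, a log2 ratio of -2.17, while NDUFC2 had 1019 and 1049 reads, a log2 ratio of -0.20. NDUFB2 overlaps BRAF on the opposite strand, which had 576 and 957 reads, a log2 ratio of 0.49. On the same strand, NDUFB8 shares 33.8% of its exon bases with AL133352.1, which had 867 and 1011 reads, a log2 ratio of -0.02. NDUFA11 shares 9.65% with AC024592.3 on the same strand, which had 962 and 749 reads, a log2 ratio of -0.60. Over the 56 nuclear members without such an overlap, the median log2 ratio was -0.43 and 18 were lower by at least 1.5-fold (32.1%).

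The genes around the pathway were read from lists. The name rule leaves out 13 further genes for subunits and associated proteins. Of these, 4 were lower by at least 1.5-fold and 2 were higher, beside 12.5% and 12.9% of all tested genes. Their median log2 ratio was -0.23 and turned to 0.18 with the length trend subtracted. CYCS, cytochrome c itself, had 6097 reads in Vector and 4409 in the OE-UNC5B-labelled library, a log2 ratio of -0.70. NDUFAB1, the acyl carrier protein of complex I, had a log2 ratio of -0.66, ATP5MD of -0.63 and UQCRHL of -0.60. On the higher side, NDUFA4L2, a paralog of NDUFA4 known as a hypoxia response gene, had 47 and 200 reads, a log2 ratio of 1.84 (interval 1.39 to 2.34), opposite to NDUFA4. HIGD1A, also known from hypoxia, had 528 and 935 reads, a log2 ratio of 0.59. COX4I1, the main form of subunit 4, had 2829 and 3536 reads, a log2 ratio of 0.08, and CYC1 of complex III had 5172 and 4630 reads, a log2 ratio of -0.40; both were named after their values were seen.

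Genes that build the complexes have longer transcripts than the subunits, with medians of 1873 nt for the factors of complex I and 1705 nt for those of complexes II to V. Of 20 complex I assembly factors 0 were past 1.5-fold in either direction, with a median of -0.11. Of 37 assembly factors for complexes II to V, 4 were lower and 0 higher, a share no larger than the 12.5% of all tested genes, with a median of -0.08. With the length trend subtracted these medians turned to 0.065 and 0.12. COX16 had 360 reads in Vector and 253 in the OE-UNC5B-labelled library, a log2 ratio of -0.75, COA3 had a log2 ratio of -0.74 and PET100 of -0.60. ATPAF1, an assembly factor of the F1 head, had a log2 ratio of -0.62. Of 13 coenzyme Q synthesis genes 0 were past 1.5-fold in either direction, with a median of -0.06, or 0.059 with the length trend subtracted.

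For mitochondrial DNA maintenance and transcription, 1 of 21 genes was lower and 1 was higher, below the 12.5% and 12.9% of all tested genes, with a median of -0.03. TFAM, which packages mitochondrial DNA and starts its transcription, had 1456 reads in Vector and 1747 in the OE-UNC5B-labelled library, a log2 ratio of 0.03. POLRMT, the mitochondrial RNA polymerase, had 1959 and 1838 reads, a log2 ratio of -0.33, and TFB2M, its partner at the promoter, had a log2 ratio of -0.30. MGME1, a nuclease of mitochondrial DNA replication, was lower at -0.67, and MTERF1, a termination factor, was higher at 0.68 with 141 and 267 reads. Among 20 genes of mitochondrial RNA processing and stability, 4 were lower and 0 higher, beside the same 12.5% and 12.9%, with a median of -0.20. TRMT10C, a subunit of the mitochondrial RNase P, had 825 and 572 reads, a log2 ratio of -0.77, and ELAC2, which cuts the other end of transfer RNAs, had 2027 and 1591 reads, a log2 ratio of -0.59. SLIRP, which stabilizes mitochondrial messenger RNA with LRPPRC, had a log2 ratio of -0.73, while LRPPRC had 6155 and 9203 reads, a log2 ratio of 0.34. FASTKD5, needed to mature transcripts that lack flanking transfer RNAs, had a log2 ratio of -0.62. ELAC2 and FASTKD5 lay close to the 1.5-fold limit, with intervals of -0.68 to -0.49 and -0.75 to -0.50.

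Of the nuclear regulators of the pathway, 9 of the 11 compared were above 0. None was lower and 2 were higher by at least 1.5-fold, beside 12.9% of all tested genes higher, with a median of 0.16. The 2 below 0 were YY1 at -0.14 (interval -0.21 to -0.06) and CREB1 at -0.07 (interval -0.33 to 0.19). NRF1 had 309 reads in Vector and 407 in the OE-UNC5B-labelled library, a log2 ratio of 0.16. GABPA, whose exons overlap those of ATP5PF, was at 0.27. The coactivators PPARGC1B and PPRC1 had log2 ratios of 0.17 and 0.03, PPARGC1A had 0 reads in each library, and ESRRA had a log2 ratio of 0.23. SP1 had 1642 and 3018 reads, a log2 ratio of 0.64, and PPARA, a receptor for fatty acids, had 70 and 326 reads, a log2 ratio of 1.97 (interval 1.61 to 2.38). These regulators have long transcripts, with a median of 5328 nt, and the median was 0.13 with the length trend subtracted.

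Upstream of the respiratory chain, 20 genes of the citric acid cycle and pyruvate dehydrogenase had a median of -0.28, with 16 below 0. MPC1, a subunit of the mitochondrial pyruvate carrier, had 1415 reads in Vector and 1035 in the OE-UNC5B-labelled library, a log2 ratio of -0.69, and was past 1.5-fold. DLST, of the 2-oxoglutarate dehydrogenase complex, was higher, with 1023 and 2081 reads, a log2 ratio of 0.79. Their median transcript is 2425 nt, and the median was -0.20 with the length trend subtracted.

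**Figure D5:**
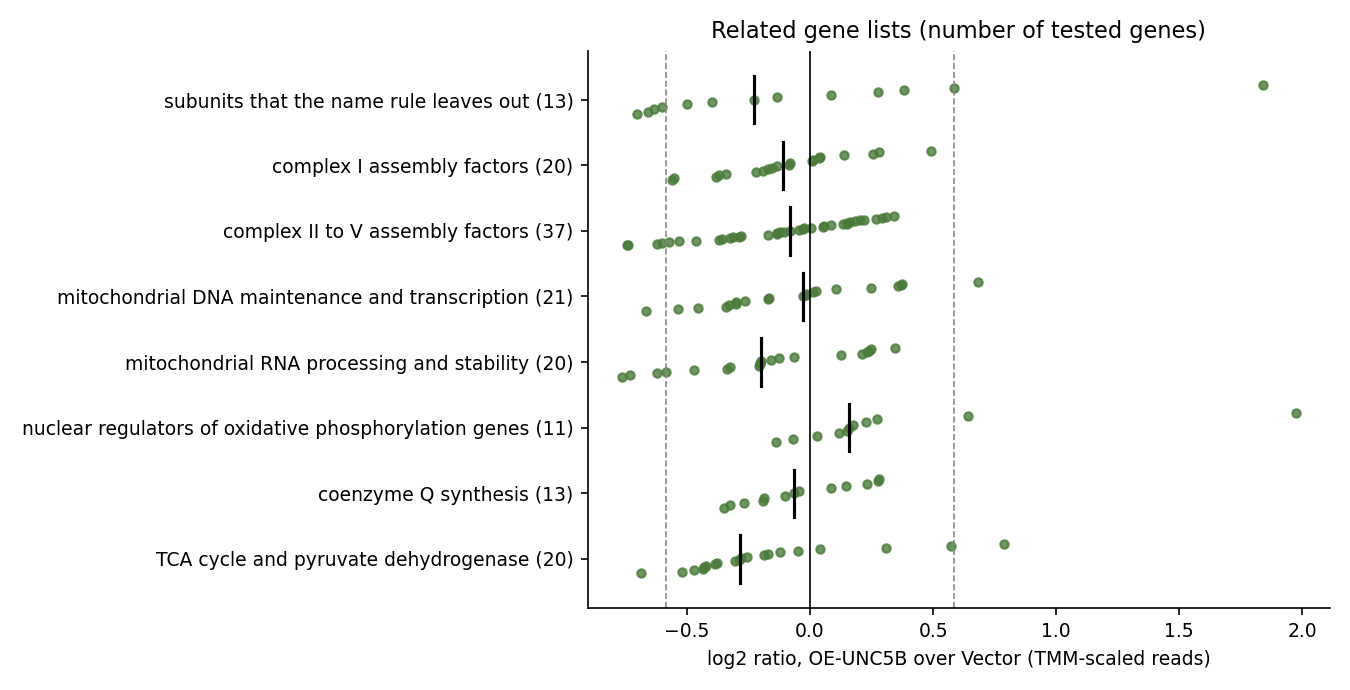
Each point is the log2 ratio of 1 gene from 8 lists of genes related to oxidative phosphorylation, with the number of tested genes in brackets, a black bar at the median of the list and dashed lines at 1.5-fold in each direction. Medians run from -0.28 for the citric acid cycle to 0.16 for the nuclear regulators.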

How the data were processed

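The series holds 1 Vector and 1 OE-UNC5B library of Molm13 cells, sequenced after mRNA separation. According to the submitters' processing notes, bcl2fastq 2.19, HISAT2 2.0.4, StringTie 1.3.0 and GRCh38 were used. How reads were assigned to genes, with which annotation release and whether by strand, is not given in the sources used here. The authors deposited raw counts per gene, without normalization, and FPKM values, which were used for levels per length and as an alternative. The sources do not say whether the 2 cultures were handled in parallel.

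Library totals were adjusted with TMM factors of 0.984 and 1.02 (edgeR 4.0.16 in R 4.3.3). Genes were compared where the libraries together held 10 or more reads, and 0.5 reads were added to each count. The 95% intervals are of the Clopper-Pearson kind (scipy 1.17.1) and, for shares of reads, Wilson intervals, and like the floor of 3 reads they cover counting error only. With 1 library per group no test could be fitted. The log2 ratios and intervals were tested on simulated counts with counting error only, scaled by library totals. That simulation held no TMM factors, no length trend and no variation between cultures. Canonical transcripts and exons came from GENCODE 44, in which 49659 of 50868 gene identifiers were found, and all 86 members compared had a transcript length. Promoters came from RefSeq.

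The members and lists were chosen with earlier results of these data known. The text names all mitochondrial members, all SDH genes, members past 1.5-fold, the highest and lowest nuclear member and the one with the highest FPKM in each complex, tissue isoforms, listed genes past 1.5-fold with at least 50 reads in 1 library, and 9 transcription genes. Further members are named for their role, and regulators below 0 are named as well. Members given no value of their own are included in the counts and medians. Subunit classes and the trend with transcript length were added with the values in view. Alternatives were library totals, totals without mitochondrial genes, DESeq2 1.42.0 size factors, other filters, 2 reads added, FPKM with 0.1 or 1 added, a 2-fold threshold, other memberships, and trends with gene length, transcript length and GC content.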

Additional observations from a re-analysis of the deposited data

How the results depend on the processing

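The medians of the nuclear-encoded members and of the mitochondrially encoded members stayed below 0 under every alternative. For the mitochondrially encoded members, whose reads leave little counting error, the median of -0.54 was -0.49 with library totals, -0.51 with library totals without mitochondrially encoded members and with DESeq2 size factors, -0.49 with FPKM and 0.1 or 1 added, -0.38 with the trend on gene length subtracted and -0.45 with gene length and GC content. The scalings moved the median of all genes by less than 0.1. Subtracting the transcript length trend, without and with GC content, moved the medians most: -0.13 and -0.18 for the mitochondrially encoded members, -0.13 and -0.15 for the nuclear-encoded members, -0.069 and -0.12 for complex I nuclear members, -0.21 and -0.27 for complex IV nuclear members, and -0.25 and -0.26 for complex V nuclear members. Medians of the complex II members reversed, from -0.12 to 0.073 and 0.0049. Complex III nuclear members had -0.54 with gene length and GC content subtracted, and complex IV nuclear members had -0.56 with the left-out genes added. The count of members lower by at least 1.5-fold was 29, but 8 with either transcript length trend subtracted and 3 at 2-fold, and it was 25 with library totals or DESeq2 size factors and 20 with gene length subtracted. With library totals MT-ND4, NDUFB3, NDUFB8 and NDUFS6 were no longer past 1.5-fold. The difference of medians, nuclear minus mitochondrially encoded members, was 0.09, but -0.02 with gene length subtracted and 0.0008 with transcript length subtracted. The share of counted reads on mitochondrially encoded members, Vector, was 6.69% of the reads of protein-coding genes and 6.18% with named pseudogenes, and the share of counted reads on mitochondrially encoded members, OE-UNC5B, was 5.32% and 4.90%. Apart from the trends and the 2-fold threshold, whose construction shows their effect, the cause of each shift was not tested. No paired analysis was possible because each group has 1 library, and for the same reason no replicate could be left out.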
